A study of Homo sapiens with 16 samples.

Results

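The genes described here degrade heme and handle the iron that heme releases. They were the rows of the deposited normalized count table whose Ensembl identifiers map to HMOX1, HMOX2, BLVRA, BLVRB, FTL, FTH1, SLC40A1, TFRC, SLC11A2 and BACH1, 10 of the 62700 genes in the table. All 10 were found, and all 10 passed the filter on low values (10 or more normalized counts on average across all 16 libraries), as did 14643 genes in total. OCI-AML3, an established acute myeloid leukemia cell line, was sequenced in 4 untreated libraries and in 3 libraries for each of 4 treatments. ATRA (all-trans retinoic acid) activates all retinoic acid receptors, and Am80 (tamibarotene) is a synthetic retinoid selective for RARA. Each was given alone or with the inhibitor pair, GSK-LSD1 against the demethylase LSD1 and MB3 against the acetyltransferase GCN5. RNA was taken 3 h after treatment, and the study's methods give 0.1 µM for ATRA, Am80 and GSK-LSD1 and 100 µM for MB3 in its cell line treatments. All libraries come from a single cell line, no library received the inhibitors without a retinoid, and the labels name no vehicle for the untreated cells. The effect of the inhibitors is therefore known only beside a retinoid, and GSK-LSD1 and MB3 cannot be told apart.

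Heme oxygenases open the heme ring and release iron, carbon monoxide and biliverdin, which the biliverdin reductases turn into bilirubin. The freed iron is stored in ferritin, a shell of light and heavy chains, or leaves the cell through ferroportin, while the transferrin receptor and the divalent metal transporter bring iron in. HMOX1 is the inducible heme oxygenase: the repressor BACH1 and the activator NRF2 compete, each with a small MAF protein, for the same antioxidant response elements, and heme removes BACH1 from them. A second layer of control acts on the transcripts, through iron-responsive elements that the iron regulatory proteins ACO1 and IREB2 bind when iron is scarce. In a 5′ UTR such a hairpin holds back translation, and in a 3′ UTR it keeps the transcript from being degraded.

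The hairpins are shown because this layer of control acts through them. The annotated transcripts (GENCODE release 29, GRCh38) were searched for an unpaired C, a 5-base arm, the 6-base loop CAGTGN and 5 bases that pair with the arm, G-T pairs allowed. FTH1 and FTL each held 1 in the 5′ UTR, SLC40A1 held 1 in the 5′ UTR and TFRC held 4 in the 3′ UTR, so 4 of the 10 genes had a match in a UTR. Of 14293 genes tested that have annotated transcripts, 2.34% held a match in any transcript. SLC11A2 had no match to these letters in the annotated transcripts. The search says nothing of elements of another shape, in SLC11A2, in TFRC or in any other of the 10 genes. It therefore does not settle which transcripts carry this control or how many elements each holds. Each sequence is 30 bases of the transcript, 5′ to 3′, with the loop in capitals.
FTH1, 5′ UTR, chr11:61967573-61967602, minus strand: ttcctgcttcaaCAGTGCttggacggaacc
FTL, 5′ UTR, chr19:48965335-48965364, plus strand: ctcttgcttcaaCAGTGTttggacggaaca
SLC40A1, 5′ UTR, chr2:189580660-189580689, minus strand: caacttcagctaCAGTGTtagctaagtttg
TFRC, 3′ UTR, chr3:196050978-196051007, minus strand: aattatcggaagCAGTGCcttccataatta
TFRC, 3′ UTR, chr3:196050574-196050603, minus strand: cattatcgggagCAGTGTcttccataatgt
TFRC, 3′ UTR, chr3:196050509-196050538, minus strand: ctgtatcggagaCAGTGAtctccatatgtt
TFRC, 3′ UTR, chr3:196050462-196050491, minus strand: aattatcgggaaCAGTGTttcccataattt
The ferritin chains shared the unpaired c, the arm ttcaa before the loop and ttgga after it, and the TFRC hairpins are listed in the order of the transcript.

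The libraries held 11963898 to 33789718 reads assigned to genes, a 2.82-fold range, and the deepest was Am80 replicate 2. Values are normalized counts, the reads of a gene divided by the size factor of its library, and fold changes are differences of log2(normalized count + 1) fitted with limma. A gene was called when its Benjamini-Hochberg adjusted p over all 14643 genes was below 0.05 and its change was at least 1.5-fold. Nothing states that replicates came from separate cultures, so the p-values measure the spread between these libraries, which may be technical. Untreated replicate 4 stood apart: it was the highest of the 4 untreated libraries for 6 of the 10 genes (HMOX1, HMOX2, BLVRA, BLVRB, FTL and FTH1). It also stood apart over the whole table, as given in a later section, so this is not particular to these genes. Of the 7 myeloid and leukocyte markers, CD33, PTPRC and LYZ were high in every library (at least 1254 normalized counts) and ANPEP lay at 578 to 798. MPO, ITGAM and CD14 were low (23.9 to 53.2, 37.4 to 122 and 67.1 to 119). The globin genes HBA1, HBA2, HBB, HBG1 and HBG2 had at most 1 read in any library, and the 11 erythroid markers together summed to 2.17 to 13.02 normalized counts per library. The markers of iron-recycling macrophages summed to 62.2 to 121 in the libraries without inhibitors and 102 to 158 in those with them, with CD163 and MARCO above an average of 10, CD5L and MRC1 at or near 0 and VSIG4 at 10 reads or fewer, and their part in the results was not tested.

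HMOX1 rose on adding the inhibitors beside either retinoid, and no other gene of the 14643 tested had a larger log2 fold change in either comparison. The HMOX1 gene lies at chr22:35380361-35394214 on the plus strand (GRCh38). In the untreated libraries its normalized counts were 131, 140, 162 and 195. With ATRA they were 167, 195 and 161, and with Am80 210, 142 and 179. These 3 groups overlapped. With ATRA and the inhibitors the counts were 4011, 7287 and 5284, and with Am80 and the inhibitors 9662, 8919 and 7763. Every library with the inhibitors was above every library without them, and the highest of the 10 libraries without them was 210. The change was 30.8-fold beside ATRA (log2 fold change 4.94 ± 0.18, SE, limma adjusted p = 4.25e-14) and 49.8-fold beside Am80 (5.64 ± 0.18, limma adjusted p = 6.36e-15). In bulk RNA a change in every cell and a larger change in some of the cells cannot be told apart, nor can fewer cells of a type and less RNA per cell.

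HMOX2, the constitutive heme oxygenase, lies at chr16:4474690-4510347 and overlaps the opposite-strand gene NMRAL1 over 228 exon bases. Its normalized counts were 355 to 522 in the untreated libraries, 386 to 448 with ATRA and 431 to 448 with Am80. They were 476 to 519 with ATRA and the inhibitors and 516 to 594 with Am80 and the inhibitors. The libraries with the inhibitors lay above those with the retinoid alone, but by less than 1.5-fold, so HMOX2 was not called (log2 fold change 0.29 ± 0.11, limma adjusted p = 0.0318, beside ATRA, and 0.37 ± 0.11, limma adjusted p = 0.0117, beside Am80). Per kilobase of exon, the ratio of HMOX1 to HMOX2 was 0.588 ± 0.075 (SD, n = 4) in untreated cells, 0.675 ± 0.110 (n = 3) with ATRA and 0.634 ± 0.110 (n = 3) with Am80. With the inhibitors it was 17.5 ± 6.0 (n = 3) beside ATRA and 24.4 ± 1.1 (n = 3) beside Am80. HMOX2 was thus the more abundant of these transcripts per length in every library without inhibitors, and HMOX1 in every library with them.

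**Figure D1:**
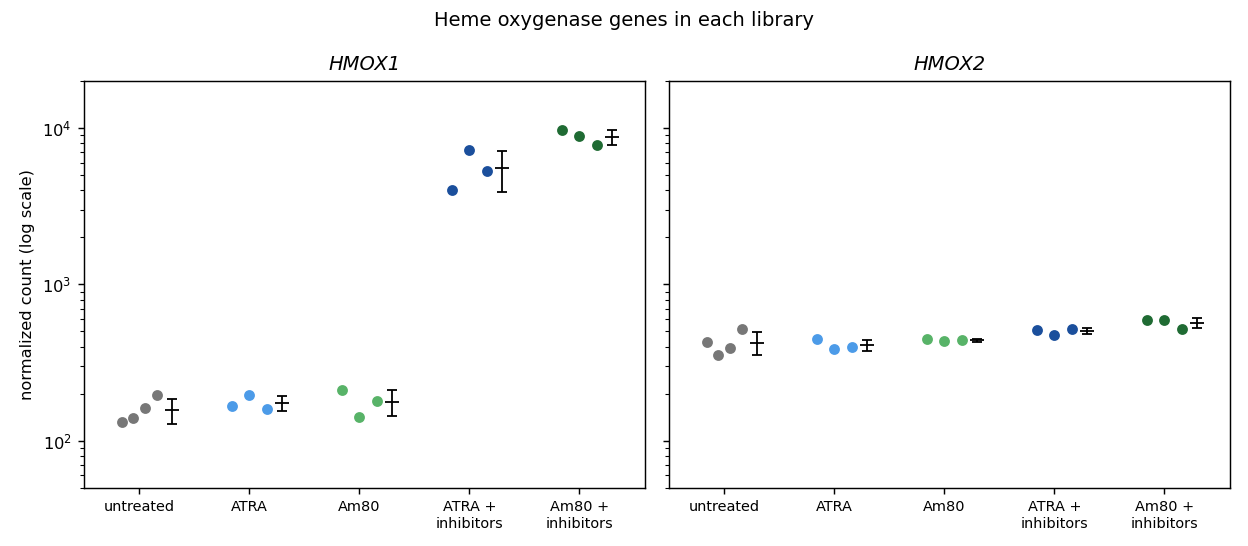
Normalized counts of HMOX1 (left) and HMOX2 (right) on a log scale in the 5 groups. Each point is 1 library, and the bar beside it gives the mean ± SD. The 6 HMOX1 points with the inhibitors lie between 4011 and 9662, all above the other 10, whereas the HMOX2 points of all groups lie between 355 and 594.

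The biliverdin reductases did not follow HMOX1. BLVRA (chr7:43758680-43807342), which reduces biliverdin IXα, fell beside ATRA, and BLVRB (chr19:40447765-40465840), which also acts as a flavin reductase, was not called in any comparison. BLVRA had normalized counts of 289, 284, 278 and 402 in untreated libraries, 301, 307 and 297 with ATRA and 323, 313 and 333 with Am80. With ATRA and the inhibitors it had 213, 185 and 163, and with Am80 and the inhibitors 240, 209 and 200. Every library with the inhibitors was lower than every library without them. The log2 fold change was -0.70 ± 0.13 beside ATRA (limma adjusted p = 0.000142), which was called, and -0.58 ± 0.13 beside Am80 (limma adjusted p = 0.00102), just short of the 1.5-fold limit. Beside Am80 it was called by edgeR (-0.60) and under scaling to total reads (-0.71). BLVRB ranged from 246 to 480 without the inhibitors and from 252 to 350 with them. Its log2 fold change was -0.25 ± 0.17 beside ATRA (limma adjusted p = 0.223) and 0.03 ± 0.17 beside Am80 (limma adjusted p = 0.895). The ratio of BLVRA to BLVRB per kilobase was 0.854 ± 0.054 in untreated cells (n = 4), 0.905 ± 0.083 with ATRA and 0.945 ± 0.217 with Am80, against 0.665 ± 0.087 and 0.607 ± 0.047 with the inhibitors beside ATRA and Am80 (n = 3 each).

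Both ferritin chains rose on adding the inhibitors. FTL, the light chain (chr19:48965301-48966878), had the most counts per kilobase of the 10 genes. In untreated cells it had 29632 ± 4986 (SD, n = 4) normalized counts per kilobase. FTH1 had 992 ± 190, which may be too low for the reason given below. FTL had normalized counts of 23457, 23999, 24041 and 32572 in untreated libraries. It had 26198, 29991 and 31169 with ATRA and 34610, 24818 and 32677 with Am80. These rose to 50556, 57512 and 63825 with ATRA and the inhibitors and to 71238, 74554 and 62928 with Am80 and the inhibitors. No library with the inhibitors overlapped those without. The log2 fold change was 0.97 ± 0.13 (limma adjusted p = 5.15e-06) beside ATRA and 1.19 ± 0.13 (limma adjusted p = 4.92e-07) beside Am80.

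FTH1, the heavy chain with the ferroxidase site (chr11:61959718-61967660), had normalized counts of 1739, 1783, 1954 and 2576 in untreated libraries. It had 1759, 2153 and 2188 with ATRA and 2192, 1539 and 2371 with Am80. With the inhibitors it had 3871, 3491 and 3064 beside ATRA and 4597, 4974 and 4247 beside Am80. The libraries with the inhibitors again lay above all others. The log2 fold change was 0.77 ± 0.15 (limma adjusted p = 0.000224) beside ATRA and 1.20 ± 0.15 (limma adjusted p = 1.96e-06) beside Am80. Short reads of ferritin transcripts also match processed pseudogenes. Genes annotated as FTH1 pseudogenes took 2.06% to 4.30% of the reads on FTH1 and its pseudogenes per library, and those of FTL 0.123% to 0.256%. FTH1 also overlaps the opposite-strand gene BEST1 over 1267 of its 2030 exon bases, and at most 137 reads were counted on BEST1 in a library. These figures cover only reads assigned to a gene, so FTH1 reads left unassigned are not seen. The level of FTH1 beside FTL may thus be understated, which was not tested.

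SLC40A1, which encodes ferroportin, the iron exporter, fell on adding the inhibitors. The gene lies at chr2:189560579-189583758 on the minus strand. Its normalized counts were 107, 87.7, 117 and 99.7 in untreated libraries, 137, 109 and 134 with ATRA and 133, 165 and 159 with Am80. With the inhibitors they were 55.6, 39.1 and 40.9 beside ATRA and 37.3, 46.7 and 50.2 beside Am80, and no such library reached any library without them. The log2 fold change was -1.47 ± 0.16 (limma adjusted p = 5.69e-07) beside ATRA and -1.75 ± 0.16 (limma adjusted p = 6.22e-08) beside Am80. SLC40A1 had 34 reads in its lowest library, the fewest of any of the 10 genes in a library. Of the transcripts with an iron-responsive element printed above, FTH1 and FTL rose and SLC40A1 fell, and all 3 carry it in the 5′ UTR. TFRC, with elements in the 3′ UTR, was lower without being called (log2 fold change -0.40 beside ATRA and -0.54 beside Am80). RNA levels do not measure translation, on which the 5′ UTR elements act. Control through these elements was not tested.

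The iron uptake genes moved less. TFRC, the transferrin receptor (chr3:196027183-196082189), had 3230, 3616, 3451 and 3283 normalized counts in untreated libraries, 2964, 2891 and 3166 with ATRA and 3090, 3178 and 2958 with Am80. It had 2257, 2400 and 2179 with ATRA and the inhibitors and 2061, 2113 and 2164 with Am80 and the inhibitors. The libraries with the inhibitors were lower than all others. The log2 fold change of -0.40 ± 0.06 beside ATRA (limma adjusted p = 3.95e-05) and of -0.54 ± 0.06 beside Am80 (limma adjusted p = 1.34e-06) stayed below the 1.5-fold limit, so TFRC was not called there. Beside Am80 it was called under quantile normalization (-0.69) and under scaling to total reads (-0.67). SLC11A2, the divalent metal transporter DMT1 (chr12:50979401-51028566), ranged from 290 to 380 normalized counts in the libraries without the inhibitors. It had 284 to 315 with ATRA and the inhibitors and 252 to 268 with Am80 and the inhibitors. Its log2 fold change was -0.16 ± 0.09 (limma adjusted p = 0.165) beside ATRA and -0.23 ± 0.09 (limma adjusted p = 0.0568) beside Am80.

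BACH1, the heme-sensing repressor of HMOX1 (chr21:29194071-29630751), rose on adding the inhibitors to ATRA. Its normalized counts were 1011, 1120, 1033 and 915 in untreated libraries, 1093, 1079 and 1114 with ATRA and 1128, 1219 and 1014 with Am80. With the inhibitors they were 1612, 1878 and 1642 beside ATRA and 1593, 1730 and 1672 beside Am80, with no overlap. The log2 fold change was 0.64 ± 0.08 beside ATRA (limma adjusted p = 3.53e-06), which was called, and 0.57 ± 0.08 beside Am80 (limma adjusted p = 1.50e-05), just short of the limit. The call beside ATRA was lost under quantile normalization (log2 fold change 0.52), under scaling to total reads (0.49), after removal of a GC trend (0.51) and without replicate 2 of the ATRA combination (0.57), with an adjusted p of at most 0.000107 in each (limma).

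**Figure D2:**
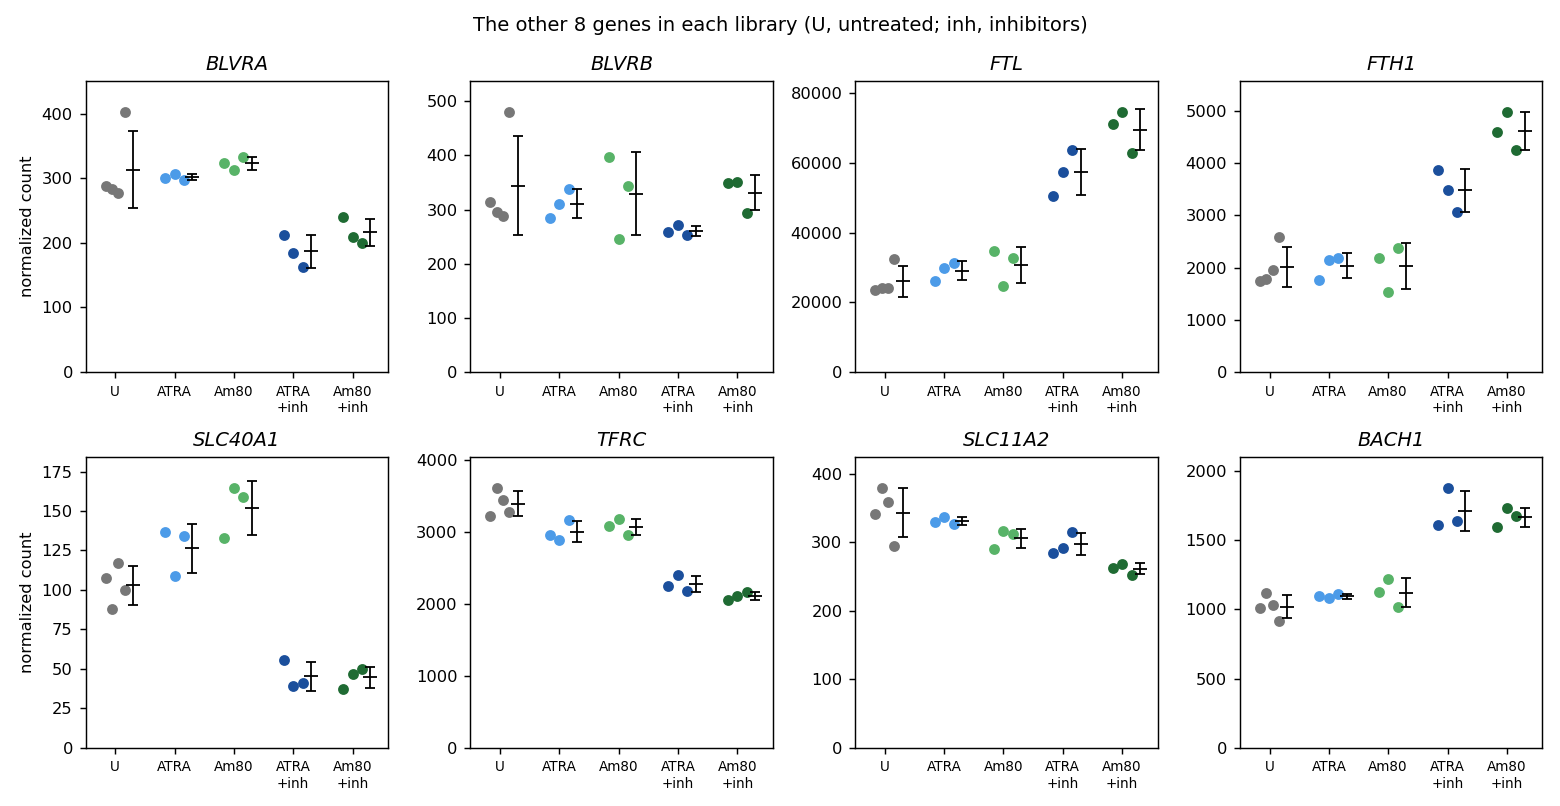
Normalized counts of the other 8 genes in the 5 groups, each panel on its own linear axis from 0. Points are libraries, and bars give the mean ± SD. FTL, FTH1 and BACH1 are higher and BLVRA, SLC40A1 and TFRC lower in all 6 libraries with the inhibitors, and the highest untreated point of BLVRA, BLVRB, FTL and FTH1 is replicate 4.

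Counted over the group, 6 of the 10 genes were called on adding the inhibitors to ATRA, with HMOX1, FTL, FTH1 and BACH1 higher and SLC40A1 and BLVRA lower, where 19.5% of all genes tested were called. On adding them to Am80, 4 of the 10 were called, with HMOX1, FTL and FTH1 higher and SLC40A1 lower, where 15.7% of all genes were called. The median log2 fold change of the 10 genes was 0.07 beside ATRA and 0.20 beside Am80, against -0.02 and -0.01 over all genes. Without Am80 replicate 2, 6 were called beside Am80, since BLVRA (log2 fold change -0.60) and BACH1 (0.64) then passed the limit, and without replicate 1 of the Am80 combination the same pair did (-0.66 and 0.61). Under scaling to total reads the median log2 fold change of all genes was -0.16 beside ATRA and -0.13 beside Am80, and 20.9% and 26.5% of the calls were higher, against 41.7% and 43.3% in the main scaling.

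**Figure D3:**
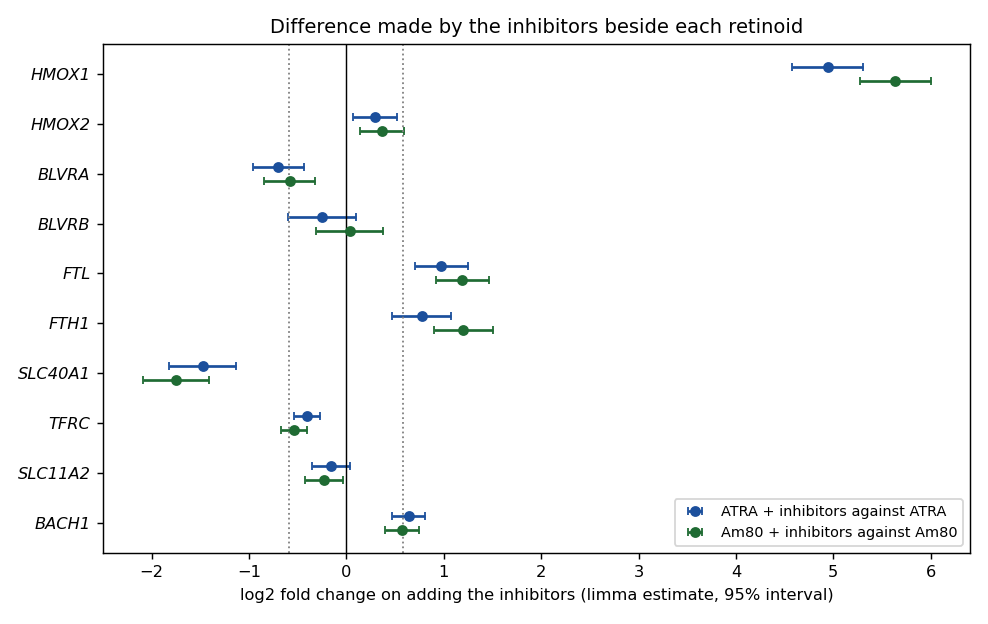
Log2 fold changes of the 10 genes on adding the inhibitors to ATRA (blue) and to Am80 (green), with 95% confidence intervals. The dotted lines mark a 1.5-fold change. HMOX1 stands at 4.94 and 5.64, FTL and FTH1 between 0.77 and 1.20, and SLC40A1 at -1.47 and -1.75.

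The retinoids alone called none of the 10 genes. With ATRA, limma called 0 members where 9.45% of all genes were called against untreated cells, and with Am80 0 where 10.2% were called. edgeR and DESeq2 also called 0 in both. At an unadjusted p below 0.05 there was 1 of the 10 with ATRA and there were 2 with Am80, where 5206 and 5713 of the 14643 genes had one. TFRC was lower with ATRA by less than the fold limit (log2 fold change -0.17 ± 0.06, limma adjusted p = 0.0377). SLC40A1 was 126 ± 16 (SD, n = 3) with ATRA and 152 ± 17 (n = 3) with Am80 against 103 ± 12 (n = 4) untreated, and the Am80 libraries did not overlap the untreated ones. With Am80 its log2 fold change of 0.56 ± 0.15 (limma adjusted p = 0.00875) came close to the fold limit, and it passed without untreated replicate 3 (0.62) or without Am80 replicate 1 (0.66). HMOX1 differed from untreated cells by 0.16 ± 0.16 with ATRA (limma adjusted p = 0.533) and 0.17 ± 0.16 with Am80 (limma adjusted p = 0.480). The 95% interval of these HMOX1 differences reached from -0.18 to 0.50 and from -0.17 to 0.51 on the log2 scale.

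Against untreated cells, each combination called 6 of the 10 genes, where 29.1% of all genes were called with ATRA and the inhibitors and 26% with Am80 and the inhibitors. HMOX1, FTL, FTH1 and BACH1 were higher and SLC40A1 was lower in both. BLVRA was the 6th with the ATRA combination (log2 fold change -0.73 ± 0.12, limma adjusted p = 2.19e-05), and TFRC was the 6th with the Am80 combination (-0.68 ± 0.06, limma adjusted p = 6.54e-09). Below the fold limit were TFRC with the ATRA combination (-0.57, limma adjusted p = 7.91e-08) and BLVRA with the Am80 combination (-0.52, limma adjusted p = 0.000909). TFRC passed with the ATRA combination under quantile normalization (-0.72), scaling to total reads (-0.72) and removal of a GC trend (-0.71). These comparisons share the untreated libraries. HMOX1 was at 5.10 ± 0.16 (limma adjusted p = 7.39e-16) and 5.81 ± 0.16 (limma adjusted p = 9.92e-17) on the log2 scale. Without untreated replicate 4 the counts were 7 and 6, with TFRC passing in the ATRA combination as well (-0.59). Under quantile normalization 5 were called with the Am80 combination, since BACH1 (0.584) fell below the limit. Under scaling to total reads BACH1 lost its call there too (0.53) and BLVRA gained one (-0.70), and after removal of a GC trend BACH1 lost its call with the ATRA combination (0.53).

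The compounds that differ are the retinoids, and none of the 10 genes was called between them. Without the inhibitors, Am80 against ATRA called 0 of the 10 where 0.0478% of all genes were called, and no member had an unadjusted p below 0.05. The HMOX1 difference was 0.01 on the log2 scale (95% interval -0.35 to 0.38). With the inhibitors, HMOX1 was 8781 ± 957 (SD, n = 3) normalized counts beside Am80 and 5527 ± 1652 (n = 3) beside ATRA, and the libraries did not overlap. The difference of 0.70 ± 0.18 (95% interval 0.34 to 1.07, limma adjusted p = 0.119) did not pass, where 0% of all genes were called. In that comparison 3 members had an unadjusted p below 0.05 (HMOX1, FTL and FTH1), as did 2656 of the 14643 genes, edgeR called 0 genes and DESeq2 16 of all genes, none of them a member (HMOX1 adjusted p = 0.156 and 0.0752). The HMOX1 call depended on the fit: limma gave an adjusted p of 0.000556 on the 6 libraries alone, 0.0270 without untreated replicate 4 and 0.0400 without Am80 replicate 2. The spread in limma comes partly from genes of similar level, so the value on 6 libraries does not rest on HMOX1 alone. For FTH1 the interval was 0.10 to 0.72, for FTL 0.01 to 0.55 and for SLC40A1 -0.35 to 0.33. The interaction, which asks whether the inhibitors act differently beside Am80, called 0 of the 10, where 0% of all genes were called (limma), edgeR called 0 and DESeq2 5 genes with no member among them. HMOX1 was the only member with an unadjusted p below 0.05 there, where 2211 of all genes had one, with an interaction of 0.69 (95% interval 0.18 to 1.21, limma adjusted p = 0.227).

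The neighbours of BACH1 and NRF2 and the genes that both control are given by lists that were chosen with earlier results of these data known. Of 5 tested genes among NRF2 (NFE2L2), its inhibitor KEAP1, the small MAF genes and BACH2, 3 rose beside ATRA and 4 beside Am80, and none fell. Of all genes tested, 8.15% were called higher beside ATRA and 6.81% beside Am80. The list's median log2 fold change was 0.78 and 1.04. NFE2L2 was at 1069 ± 80 normalized counts (SD, n = 3) with ATRA and 2278 ± 232 with the ATRA combination. It was at 1158 ± 110 with Am80 and 2376 ± 64 with the Am80 combination (log2 fold changes 1.09 ± 0.08 and 1.04 ± 0.08, limma adjusted p = 3.21e-09 and 5.84e-09). MAFG rose by 0.92 ± 0.08 and 1.24 ± 0.08 and MAFF by 0.78 ± 0.24 and 1.21 ± 0.24 on the log2 scale (limma adjusted p of at most 0.0104). MAFF had also risen with the retinoids alone, from 33.4 ± 15.1 (n = 4) to 151 ± 11 with ATRA and 158 ± 6 with Am80. MAFK, named after its values were seen, rose beside Am80 (0.74 ± 0.16, limma adjusted p = 0.00118) and had fallen with Am80 alone (-0.59 ± 0.15, limma adjusted p = 0.00562, not called by edgeR or DESeq2). Neither combination called MAFK against untreated cells. It was at 0.15 in the Am80 combination (limma adjusted p = 0.431) and at -0.37 in the ATRA combination (limma adjusted p = 0.0444). KEAP1 was not called, at -0.03 ± 0.10 and 0.22 ± 0.10.

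Among 8 antioxidant genes that NRF2 activates, 6 rose beside each retinoid and none fell, with median log2 fold changes of 1.61 and 1.63. Of all genes tested, 8.15% were called higher beside ATRA and 6.81% beside Am80. OSGIN1, an oxidative stress-induced growth inhibitor, had 17.9 ± 2.0 normalized counts with ATRA and 497 ± 99 with the ATRA combination. With Am80 it had 22.8 ± 6.1 and with the Am80 combination 764 ± 93 (n = 3 each). NQO1, a quinone reductase, rose by 2.82 ± 0.11 and 3.01 ± 0.11 on the log2 scale. GCLM, a subunit of the enzyme that starts glutathione synthesis, rose by 2.37 ± 0.08 and 2.19 ± 0.08, and TXNRD1, thioredoxin reductase, by 1.66 ± 0.08 and 1.74 ± 0.08 (limma adjusted p of at most 8.10e-12 for these 4 genes). SLC7A11 and ME1, named after their values were seen, were the others that rose. GCLC and SRXN1 were not called, at 0.52 and 0.15 beside ATRA and 0.32 and 0.48 beside Am80. HMOX1 at 4.94 and 5.64 and OSGIN1 at 4.70 and 5.03 had larger estimates than the other genes of this list.

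None of the 8 tested heme synthesis enzymes was called in either comparison by limma, edgeR or DESeq2. Of all genes, limma called 19.5% beside ATRA and 15.7% beside Am80. The median log2 fold change of the enzymes was -0.27 beside both retinoids. ALAS1, the rate-limiting enzyme outside the erythroid lineage, was at 0.08 ± 0.06 (limma adjusted p = 0.281) beside ATRA and 0.30 ± 0.06 (limma adjusted p = 0.000542) beside Am80. ALAD, the enzyme after it, was at -0.44 ± 0.06 beside both (limma adjusted p of at most 9.71e-06), and PPOX was at -0.57 ± 0.11 and -0.37 ± 0.11, all below the 1.5-fold limit. ALAD had risen below that limit with ATRA (0.42) and Am80 (0.45) alone (limma adjusted p of at most 8.25e-06). Against untreated cells it was at -0.01 and 0.01 in the ATRA and Am80 combinations. ALAS1 had also risen with each retinoid alone, by 0.51 (limma adjusted p of at most 5.24e-07). Of 8 tested genes of heme and porphyrin transport, SLC48A1, which carries heme out of endolysosomes, rose (0.69 ± 0.14 and 0.87 ± 0.14, limma adjusted p = 0.000307 and 3.62e-05). SLC25A38, which brings glycine into mitochondria for heme synthesis, fell (-0.70 ± 0.09 and -0.61 ± 0.09, limma adjusted p = 2.20e-06 and 1.47e-05). SLC46A1, a folate and heme carrier named after its values were seen, fell beside Am80 (-0.62 ± 0.15, limma adjusted p = 0.00259). The median log2 fold change of the list was 0.06 beside ATRA and -0.03 beside Am80.

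**Figure D4:**
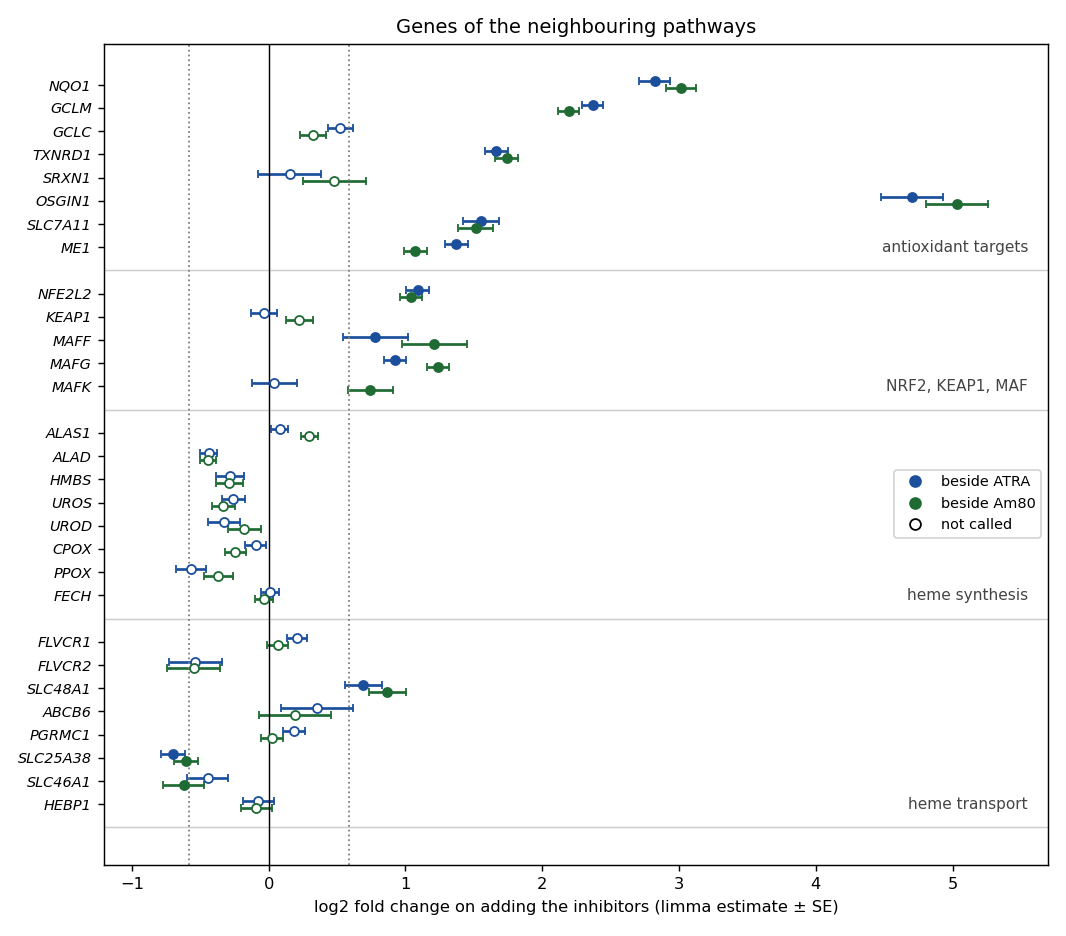
Log2 fold changes (limma estimate ± SE) on adding the inhibitors to ATRA (blue) and to Am80 (green) for 4 lists of neighbouring genes. Filled points were called, open points were not, and dotted lines mark a 1.5-fold change. The antioxidant targets reach 5.03 (OSGIN1), whereas all heme synthesis enzymes lie between -0.57 and 0.30.

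On adding the inhibitors, 19.5% of all genes were called beside ATRA and 15.7% beside Am80. Of 10 tested genes of other iron transport and storage, only NCOA4 was called, beside ATRA alone. NCOA4, the receptor that delivers ferritin to lysosomes, rose there by 0.65 ± 0.07 (limma adjusted p = 2.38e-07) and was at 0.50 ± 0.07 beside Am80 (limma adjusted p = 6.20e-06), below the fold limit. The difference between the retinoids was not called (limma interaction). Of 6 tested regulators of iron handling, HFE rose beside ATRA (0.86 ± 0.25, limma adjusted p = 0.00645) and was at 0.48 ± 0.25 beside Am80 (limma adjusted p = 0.132). NCOA4 and HFE were named after their values were seen. The iron regulatory proteins were not called: ACO1 was at 0.07 ± 0.08 and 0.02 ± 0.08, and IREB2 at 0.30 ± 0.08 (limma adjusted p = 0.00373) and 0.13 ± 0.08. With the retinoids alone, HFE rose (0.80 ± 0.23 with ATRA and 0.75 ± 0.23 with Am80, limma adjusted p = 0.0134 and 0.0168) and TFR2, a transferrin receptor relative, fell with Am80 (-0.70 ± 0.10, limma adjusted p = 2.74e-05). These were named after their values were seen, as were FLVCR2 (-0.82 and -0.89) and SLC46A1 (-0.63 and -0.71), which fell with both, and ABCB6 (-0.79), which fell with ATRA. HFE averaged 14.4 normalized counts untreated, 26.3 with ATRA and 25.0 with Am80. ABCB6 averaged 28.0 untreated and 15.7 with ATRA, so both genes lay near the filter of 10. No heme synthesis or antioxidant gene of the lists was called with a retinoid alone by limma, edgeR or DESeq2. Of all genes, limma called 9.45% with ATRA and 10.2% with Am80. The hormone gene HAMP, the binding proteins TF and LTF and the mitochondrial ferritin FTMT did not pass the filter on low values.

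The genes whose pattern over the 16 libraries was most like that of HMOX1, among 11300 others that averaged 50 or more normalized counts, were OSGIN1, LUCAT1, NQO1, SAT1 and MBNL2. OSGIN1 and LUCAT1 averaged below 50 in every group without the inhibitors and passed this filter only through the groups with them. Genes as low without the inhibitors could enter only if they were high with them, so this ranking describes and tests nothing. The root mean square difference between centred log2 profiles was 0.49 for OSGIN1, 0.95 for LUCAT1, 1.21 for NQO1, 1.34 for SAT1 and 1.36 for MBNL2. LUCAT1, a long noncoding RNA, averaged 6.32 normalized counts untreated, 12.1 with ATRA and 6.31 with Am80, and 124 and 129 with the inhibitors beside ATRA and Am80. SAT1, which acetylates polyamines, went from 181 to 854 beside ATRA and from 194 to 1072 beside Am80. For FTL the nearest were PLEKHO2 (0.12), PGD (0.13), an enzyme of the pentose phosphate pathway, and AIFM2 (0.14), a coenzyme Q reductase. For FTH1 they were TESK1 (0.11), SPINDOC (0.14) and B4GALNT3 (0.15), and for SLC40A1 they were PARP9 (0.22), SPC24 (0.23) and MAP10 (0.23). PARP9 averaged 215 normalized counts untreated, 338 with ATRA and 345 with Am80, and 127 and 107 with the inhibitors, an order of groups close to that of SLC40A1.

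Promoter windows of 8 of the 10 genes were read from RefSeq (GRCh38.p14), 14 windows in all, each from 250 bases before to 50 bases after a transcription start. HMOX1 and FTH1 were not analysed here. The core of the antioxidant response element, TGACNNNGC, was searched on both strands and was in 0 of the 14 windows, against 13.3% of all 35116 windows of this length. The 14 windows are few, several belong to the same gene, and sequence farther from the start was not searched. The absence of a match therefore does not show that these genes lack the element. The AP-1 site TGANTCA was in 2 of the 14, 1 of BACH1 and 1 of SLC11A2, against 7.71% of all windows. Neither motif contains the other, but the same bases can match both.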

How the data were processed

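RNA-seq of OCI-AML3 cells gave 16 libraries (4 untreated, 3 per treatment), grouped by the treatment in the labels. The signal values deposited by the authors are DESeq2-normalized counts per gene. The submitters' processing notes name FastQC, cutadapt, STAR, featureCounts and DESeq2, and their versions, the genome build, annotation and strand setting are not given in the sources used here. The labels and the methods name different RNA and library kits. Without a known strand setting, overlapping opposite-strand genes cannot be told apart. Whole reads were recovered from the size steps (100% of values whole, within 0.05 reads), and the columns cover all libraries. Replicates differed by more than counting noise (chi-square per degree of freedom 2.75 to 25.9 over 18 pairs), so none was merged.

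Log2(normalized count + 1) was fitted with limma 3.58.1 (R 4.3.3, trend, all 16 libraries, no covariates) for genes averaging 10 or more, with 9 comparisons. The fold changes understate those of low genes. Calls needed an adjusted p below 0.05 (Benjamini-Hochberg) and 1.5-fold. The model was tested on simulated data. Alternatives were edgeR 4.0.16 and DESeq2 1.42.0 on the recovered reads, other pseudocounts, filters, scalings and limits, a replicate block and leaving out each library. The GC trend was added after seeing the data. Gene symbols came from a reference table (all 62700 identifiers matched), and positions and exon lengths from GENCODE.

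The genes and lists were chosen with earlier results of these data known. Named were all 10 genes, per list up to 4 genes called the same way in both comparisons that add the inhibitors (largest mean change), and the 5 genes most like HMOX1 and 3 most like FTL, FTH1 and SLC40A1, which were called in both. The antioxidant list held a further gene, which is not reported here, nor are the lymphoid markers. No promoter of HMOX1 or FTH1 was analysed here.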

Additional observations from a re-analysis of the deposited data

Results flagged for a closer look

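Untreated replicate 4 was set apart from the other 3 untreated libraries for BLVRA, BLVRB and FTL. Its gap to the next library was 0.912 of the whole range of the group for BLVRA, 0.870 for BLVRB and 0.936 for FTL, above Dixon's 95% critical value for 4 samples, which chance passes in about 1 of 20 groups. The normalized counts were 402 against 278 to 289 for BLVRA, 480 against 289 to 314 for BLVRB and 32572 against 23457 to 24041 for FTL. Without this library the untreated means were 283 ± 5 for BLVRA, 299 ± 13 for BLVRB and 23832 ± 326 for FTL (SD, n = 3). Set against these, FTL was higher with ATRA by 0.29 (limma adjusted p = 0.0444) and with Am80 by 0.35 (limma adjusted p = 0.0104) on the log2 scale, below the 1.5-fold limit. With all libraries the FTL differences were 0.17 and 0.24 (limma adjusted p = 0.338 and 0.156). The library was left out for its high FTL value, which lowers the untreated mean and spread. The smaller p-values therefore follow from that choice and are no test of FTL.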

How the results depend on the processing

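The 10 genes in 9 comparisons gave 90 log2 fold changes, each under 27 alternatives. Of these 2430 values, 2385 stayed on the same side of the limits (45 of them, all uncalled, had the other sign), 7 lost and 23 gained a call, 15 that were never called moved, and none that was called reversed. HMOX1 ranged from 4.72 to 5.15 beside ATRA and from 5.49 to 5.77 beside Am80 when single libraries were left out. With no fold limit, 1 gene was called with ATRA, 1 with Am80, 8 on adding the inhibitors to Am80 and 10 in the ATRA combination against untreated cells, where 24.6%, 28.8%, 39.5% and 60.2% of all genes were called. With an adjusted p below 0.01 and 2-fold, 2 were called on adding the inhibitors to ATRA and 3 in the ATRA combination against untreated cells, where 5.10% and 10.7% of all genes were called. For Am80 against untreated cells, leaving out 1 library gave 0 to 1. Between the combinations it gave 0 to 1, and the fit on the groups compared gave 1 (HMOX1). The replicate numbers did not pair the libraries (3 of 24 same-numbered pairs correlated above 0.1, and 5 of 15 libraries correlated best with their own number). The replicate block called 1 gene between the combinations (HMOX1, limma adjusted p = 0.0292) and 7 in the ATRA combination against untreated cells, where TFRC passed the limit (-0.59). The causes were not tested. Depth limits SLC40A1, which had 34 reads in its lowest library.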

Other observations

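In Am80 replicate 2, the deepest library, the same 6 genes that were highest in untreated replicate 4 (HMOX1, HMOX2, BLVRA, BLVRB, FTL and FTH1) were lowest among the 3 Am80 libraries, and the other 4 were highest. FTL was 24818 there against 34610 and 32677, and FTH1 1539 against 2192 and 2371. Over the genes of the table, the pairs of this library with Am80 replicates 1 and 3 had a chi-square per degree of freedom of 17.2 and 25.9. The remaining Am80 pair had 4.61, so the difference is not particular to these genes. In the ATRA combination the ferritin chains were ordered in opposite ways: FTL was 50556, 57512 and 63825 and FTH1 3871, 3491 and 3064 in replicates 1, 2 and 3. The ratio of FTL to FTH1 per kilobase there was 30.2 to 48.2, against 28.4 to 37.3 in the 13 other libraries.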
